A study of Mus musculus with 29 samples.

Results

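Acetylation of lysine 27 of histone H3 (H3K27ac) marks active enhancers and promoters. The regions described here are the H3K27ac peaks that appeared within 1 h of lipopolysaccharide (LPS) and were still called at 4 h. They were chosen from the H3K27ac lists themselves: peaks of the LPS 1 h list on chromosomes 1 to 19 and X with no overlap in the list of untreated cells and an overlap of at least 1 bp in the LPS 4 h list. The rule gave 2034 regions out of 28869 H3K27ac peaks at 1 h, or 7.05%, and they are called the kept gains below. Another 579 peaks of the 1 h list were gained and absent at 4 h, 5537 peaks of the 4 h list were called at 4 h only, and 25514 peaks of the 1 h list were present at all 3 times.

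The cells were RAW264.7, an established mouse macrophage-like line transformed by Abelson murine leukaemia virus. Groups of H3K27ac, H3K4me1, H3K4me3, H3K27me3, H3K36me2, H3K36me3 and H3K79me2 chromatin immunoprecipitations were untreated cells, cells given LPS at 100 ng/ml for 1 h, and cells given it for 4 h. PU.1 was mapped in untreated cells only, and H3K4me1 and H3K36me2 were also mapped after flavopiridol for 1 h followed by LPS for 4 h and after flavopiridol for 1 h alone. There was 1 library per mark and condition, so no comparison has a replicate check and none was tested. Each share has a 95% Wilson interval, given in brackets, that covers counting error only. No read totals were at hand, so depth is unknown, and a region without a peak may hold signal under the caller's threshold.

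LPS, a cell wall component of Gram-negative bacteria, activates Toll-like receptor 4 on macrophages and through it NF-κB and other transcription factors, which act largely at enhancers that are already marked. H3K4me1 marks enhancers whether active or only primed, and PU.1 is the lineage factor of macrophages that opens many of them. H3K4me3 marks promoters. H3K27me3 is deposited by Polycomb repressive complex 2 on silenced regions, and the same lysine cannot be methylated and acetylated at once. H3K36me3 and H3K79me2 lie over transcribed gene bodies, H3K79me2 mostly towards their start, and H3K36me2 lies over genes and between them. Flavopiridol inhibits CDK9, the kinase that releases paused RNA polymerase II.

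Most kept gains were distal sites that already carried H3K4me1. A kept gain was called a promoter where it overlapped an H3K4me3 peak of LPS 1 h and distal otherwise. By that rule 241 kept gains, or 11.8% (10.5 to 13.3), were promoters and 1793, or 88.2% (86.7 to 89.5), were distal. The promoter share was 8.64% (6.61 to 11.2) of the gains absent at 4 h, 8.04% (7.35 to 8.78) of the peaks gained at 4 h only and 61.8% (61.3 to 62.4) of the peaks present at all 3 times. The intervals of the kept gains and of the gains absent at 4 h overlapped slightly.

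At some of these sites H3K4me3 was first called after H3K27ac. Of the kept gains, 12.6% overlapped H3K4me3 before LPS, 11.8% at 1 h and 15.7% at 4 h. H3K4me3 was absent in untreated cells and present at 4 h at 86 kept gains, which is 4.23% (3.44 to 5.19) of them. The background over all H3K27ac peaks of 1 h was 3.36%. Of these 86 sites, 73 had no H3K4me3 at 1 h and 13 had it by then. The order rests on peak calls: 35 kept gains with H3K4me3 before LPS had none called at 1 h. Of those, 20 had it again at 4 h. The H3K4me3 list held 21676 peaks before LPS, 21156 at 1 h and 22231 at 4 h, and its part in the order was not tested. Among regions without H3K4me3 before LPS, the share that gained it by 4 h was 4.84% (3.94 to 5.94) for the kept gains, 2.27% (1.30 to 3.92) for the gains absent at 4 h and 9.11% (8.55 to 9.71) for the peaks present at all 3 times. For all H3K27ac peaks of 1 h it was 7.79% (7.33 to 8.27), above the interval of the kept gains. Width was not matched here. At 1685 kept gains, 82.8%, there was no H3K4me3 peak at any of the 3 times.

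Promoter and distal kept gains carried different marks before LPS. PU.1 lay at 55.6% (49.3 to 61.7) of the promoter sites and at 55.1% (52.8 to 57.4) of the distal sites, so the shares were alike within counting error. H3K27me3 was present at 31.5% (26.0 to 37.7) of the promoter sites and at 7.75% (6.60 to 9.08) of the distal sites. H3K4me1 was present at 75.9% (70.2 to 80.9) of the promoter sites and at 89.2% (87.7 to 90.5) of the distal sites. The marks of transcribed bodies lay mostly at the distal sites: H3K36me3 covered part of 2 promoter sites, 0.830%, and of 624 distal sites, 34.8%. H3K79me2 was present at 2.49% of promoter sites and 22.4% of distal sites, and H3K36me2 at 4.98% of promoter sites and 49.9% of distal sites.

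H3K4me1 was present at 87.6% (86.1 to 89.0) of the kept gains before LPS, and the share was 90.2% (88.8 to 91.4) after 1 h and 94.3% (93.3 to 95.3) after 4 h. The share in untreated cells was 77.7% (74.2 to 80.9) for the gains absent at 4 h, 73.3% (72.2 to 74.5) for those gained at 4 h only and 97.8% (97.6 to 98.0) for the peaks present at all 3 times. The last are wider peaks, and within a fixed window of 1000 bp at the centre their share was 86.4% (86.0 to 86.8), against 87.3% (85.7 to 88.6) for the kept gains. In that window the kept gains had H3K4me1 at 94.6% at 4 h, and the peaks present at all 3 times at 84.4%. The order of these classes at 4 h thus differed between the whole peak and the window, and before LPS their intervals in the window overlapped. Among whole peaks of like width, the untreated share was higher for the peaks present at all 3 times in every class, with intervals apart. Those under 500 bp had 94.2% (92.8 to 95.4), against 84.1% of kept gains. Those of 2000 bp and over had 99.5% (99.4 to 99.6), against 91.8%. What lowered their share in the window was not tested. The gains absent at 4 h were at 78.8% (75.2 to 81.9) in the window before LPS. By class of width, the intervals of the kept gains and the gains absent at 4 h were apart in 2 of 4 classes. Among peaks of 500 to under 1000 bp, H3K4me1 lay at 88.7% (86.3 to 90.8) of kept gains and at 78.1% (72.4 to 82.9) of gains absent at 4 h. Among peaks of 1000 to under 2000 bp the shares were 87.8% (85.0 to 90.1) and 77.8% (68.6 to 84.8). Under 500 bp they were 84.1% (80.6 to 87.1) and 77.1% (71.4 to 82.0), which overlap slightly, and at 2000 bp and over 169 of 184 peaks and 9 of 11 peaks, 91.8% and 81.8%, with overlapping intervals. Where it was present, H3K4me1 covered the whole of the kept gain at 1313 of 1782 sites, 73.7%, in untreated cells and at 1658 of 1919 sites, 86.4%, at 4 h.

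**Figure D1:**
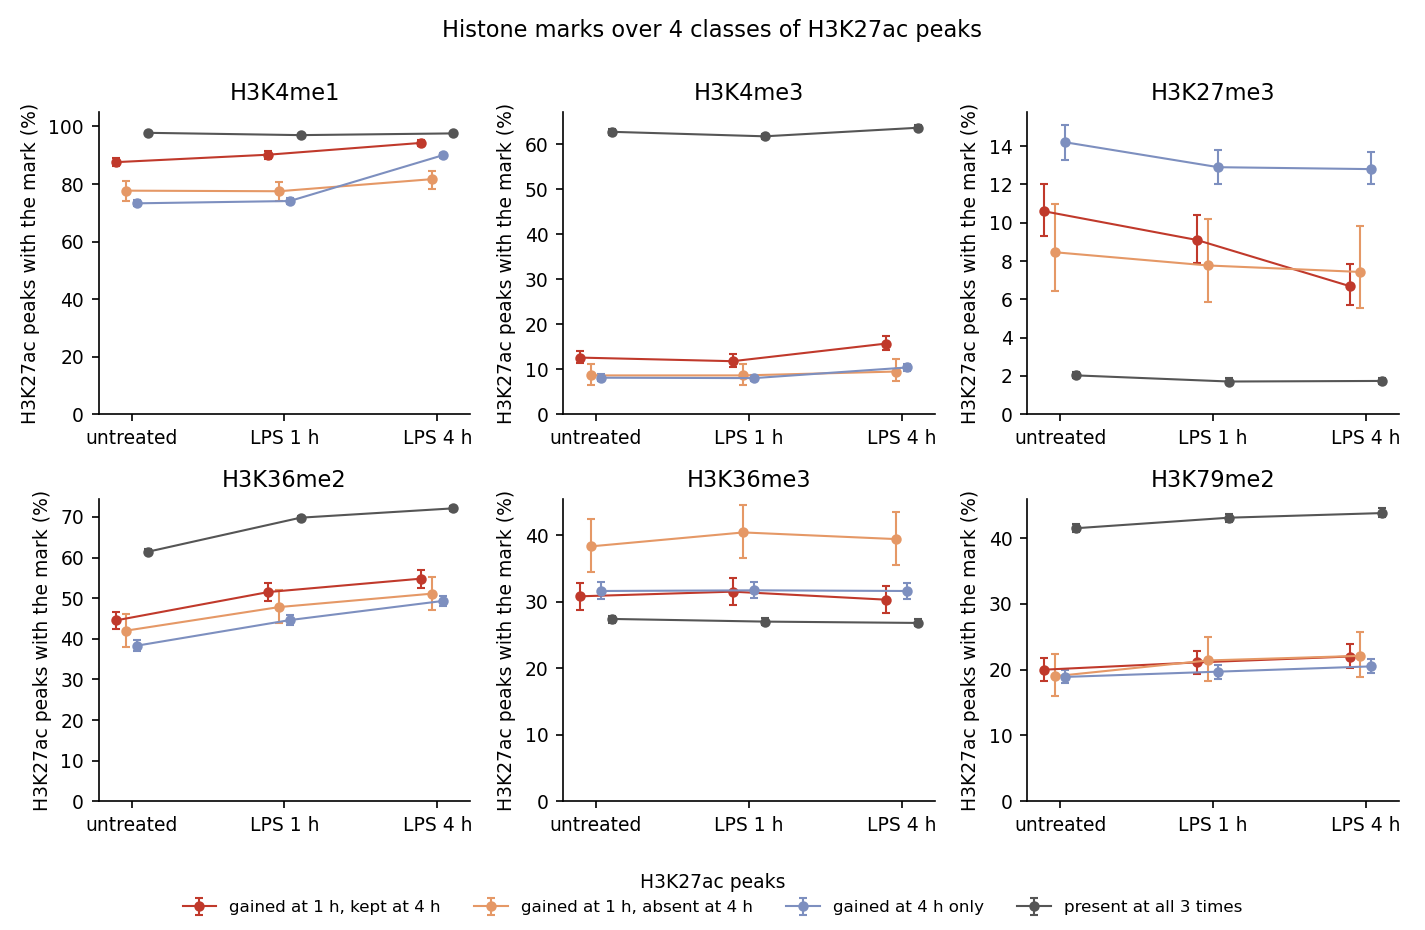
Each panel plots the share of H3K27ac peaks (%, y axis from 0) that overlap a peak of 1 histone mark at each of the 3 times, for 4 classes of H3K27ac peaks; bars are 95% Wilson intervals that cover counting error only. The kept gains stand at 87.6%, 90.2% and 94.3% for H3K4me1 and at 10.6%, 9.10% and 6.69% for H3K27me3.

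H3K4me1 was also wider over the kept gains at 4 h. At the 1744 kept gains with H3K4me1 at all 3 times, the median width of the H3K4me1 peak was 2418 bp in untreated cells, 2444 bp at 1 h and 3446 bp at 4 h. The H3K4me1 peak was wider at 4 h than in untreated cells at 74.3% (72.2 to 76.3) of these sites. The same held for 52.5% (47.7 to 57.2) of the 423 gains absent at 4 h that had the mark at all 3 times and for 44.4% (43.7 to 45.0) of 24467 peaks present at all 3 times. In untreated cells the median width of the H3K4me1 peak was 2414 bp at these gains absent at 4 h and 4858 bp at these peaks present at all 3 times. The part of the starting width in the contrast was not tested. At 1 h the peak was wider than in untreated cells at 48.7% of the kept gains, so most of the widening was seen between 1 h and 4 h. At a distance of 1 kb from the centre of the kept gains, H3K4me1 peaks covered 46.5% of positions before LPS, 47.9% at 1 h and 62.1% at 4 h. At 10 kb the shares were 25.8%, 24.3% and 28.2%.

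No H3K4me1 was called in untreated cells at 252 kept gains. Of these, 150, or 59.5% (53.4 to 65.4), had it at 4 h, and 83 had it at 1 h. The share among regions without prior H3K4me1 that gained it by 4 h was 27.9% (20.9 to 36.2) for the gains absent at 4 h, 66.5% (64.0 to 68.8) for those gained at 4 h only and 32.1% (28.3 to 36.1) for the peaks present at all 3 times. Over all kept gains the 150 are 7.37%, against a background of 1.27% of all H3K27ac peaks of 1 h. H3K4me1 was lost by 4 h at 13 kept gains. The H3K4me1 list itself held 65547 peaks before LPS, 65590 at 1 h and 73217 at 4 h, and the part of that growth in these gains was not tested. Of the 150 sites that gained it, 74 had it by 1 h and 76 at 4 h only.

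Distal kept gains with no prior H3K4me1 numbered 194, which is 9.54% (8.34 to 10.9) of the total. Such sites were 17.8% (14.9 to 21.1) of the gains absent at 4 h and 24.6% (23.5 to 25.7) of those gained at 4 h only. They were 0.219% (0.169 to 0.285) of the peaks present at all 3 times. PU.1 was rarer where H3K4me1 was absent: it lay at 48 of the 252 kept gains without prior H3K4me1 (interval 14.7% to 24.3%) and at 60.3% (58.0 to 62.5) of those with it. The other classes had the same order. Without and with prior H3K4me1, PU.1 lay at 10.9% and 54% of the gains absent at 4 h. The shares were 13.2% and 52.3% for those gained at 4 h only, and 58.9% and 89.4% for the peaks present at all 3 times. H3K36me3 was present before LPS at 42.1% (36.1 to 48.2) of the sites without prior H3K4me1 and at 29.2% (27.1 to 31.3) of those with it. At 93 kept gains H3K4me1 was called at none of the 3 times. Of these, 41 had H3K4me3 at some time and 38 had H3K36me3 at some time, and 76 had 1 or both.

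The widest distal kept gain with no prior H3K4me1 was chr7:142886964-142892187 (mm9, 5224 bp), where H3K4me1 covered 27.2% of the region at 1 h and 38.9% at 4 h. H3K36me3 covered all of it at the 3 times and H3K79me2 covered 24.4% before LPS, 65.6% at 1 h and 93.5% at 4 h. The second, chr11:19981852-19986563 (mm9, 4712 bp), was likewise inside H3K36me3 and H3K79me2 at every time and had H3K4me1 over 41.3% of its length at 4 h only. The third, chr16:84624335-84628024 (mm9, 3690 bp), had no mark of the 6 and no PU.1 in untreated cells. There H3K4me1 covered 25.8% at 1 h and 100% at 4 h, and the H3K27ac peak was 12871 bp wide at 4 h. Sites with none of the 6 other histone marks and no PU.1 before LPS were few among the kept gains, 30 in all, 1.47% (1.04 to 2.10).

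PU.1 was bound before LPS at about the same share of kept gains in every class of width. A PU.1 peak of untreated cells overlapped 1122 kept gains, or 55.2% (53.0 to 57.3). The share was 44.4% (40.4 to 48.5) for the gains absent at 4 h, 41.9% (40.6 to 43.2) for those gained at 4 h only and 88.7% (88.3 to 89.1) for the peaks present at all 3 times. Kept gains under 500 bp held PU.1 at 50.6% (46.2 to 55.0), those of 500 to under 1000 bp at 57.0% (53.4 to 60.5), those of 1000 to under 2000 bp at 56.5% (52.6 to 60.3) and those of 2000 bp and over at 55.4% (48.2 to 62.4). For the gains absent at 4 h the shares in these classes were 42.4% (36.2 to 48.8), 47.2% (40.9 to 53.6), 40.4% (31.3 to 50.3) and, over 11 peaks, 63.6% (35.4 to 84.8). The intervals were apart only at 1000 to under 2000 bp. Per kb of region there were 0.570 PU.1 peaks in the kept gains and 0.645 in the gains absent at 4 h, which are narrower. There were 0.462 in those gained at 4 h only and 0.546 in the peaks present at all 3 times, which are wider than the kept gains. In a fixed window of 1000 bp the shares were 54.8% (52.6 to 57.0) for the kept gains, 46.1% (42.1 to 50.2) for the gains absent at 4 h and 79.1% (78.6 to 79.6) for the peaks present at all 3 times.

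A single PU.1 peak was the usual number: 1040 kept gains held 1, 77 held 2, 5 held 3 and 912 held none. The fold enrichment of a PU.1 peak is the authors' own value. The strongest PU.1 peak in each kept gain had a median fold enrichment of 8.05 (quartiles 4.75 and 14.1), and the highest was 61.3. The median was 7.68 for the gains absent at 4 h, 7.02 for those gained at 4 h only and 12.2 for the peaks present at all 3 times. The last held up to 24 PU.1 peaks each. Those with PU.1 had a median width of 2001 bp, against 861 bp for kept gains with PU.1. A strongest value can rise with the number of peaks, and the part of number and width was not tested. A PU.1 peak of at least 10-fold enrichment lay in 21.4% of kept gains. The summit of the strongest PU.1 peak was a median of 201 bp from the centre of the kept gain. Distal sites with prior H3K4me1 and PU.1 and without H3K27me3 numbered 881, or 43.3% (41.2 to 45.5) of kept gains. This was the largest combination of position, H3K4me1, PU.1 and H3K27me3, with the other marks left aside. Another 603, or 29.6% (27.7 to 31.7), were distal and had prior H3K4me1 with neither PU.1 nor H3K27me3. The shares of these combinations among other H3K27ac peaks were not counted.

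The first of the 5 kept gains with 3 PU.1 peaks, in chromosome order, was chr4:63743983-63749731 (mm9, 5749 bp). It held 3 PU.1 peaks, the strongest at 9.28-fold, and had H3K4me1 over 89.3% and H3K36me2 over 100% of its length before LPS. It lay 492082 bp from the nearest H3K27ac peak of untreated cells, and its H3K27ac peak was narrower at 4 h, 4016 bp. As many PU.1 peaks lay in chr6:86521086-86522506 and in chr7:140054711-140058629 (both mm9), with strongest folds of 7.29 and 17.2. Both had H3K4me1 over nearly all of their length before LPS, 100% and 97.0%.

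Fewer kept gains carried H3K27me3 after LPS than before it. It was present at 215 kept gains, 10.6% (9.31 to 12.0), before LPS, 185, 9.10% (7.92 to 10.4), after 1 h and 136, 6.69% (5.68 to 7.86), after 4 h. For the gains absent at 4 h the shares were 8.46%, 7.77% and 7.43%, for those gained at 4 h only 14.2%, 12.9% and 12.8%, and for the peaks present at all 3 times 2.03%, 1.71% and 1.74%. These shares are of the same regions at each time, so their intervals do not measure the change. Between untreated cells and 4 h, H3K27me3 was lost at 91 kept gains and gained at 12. The numbers lost and gained were 12 and 6 for the gains absent at 4 h and 177 and 102 for those gained at 4 h only. They were 182 and 106 for the peaks present at all 3 times.

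Of the 215 kept gains with H3K27me3 before LPS, 91 had none at 4 h, which is 42.3% (35.9 to 49.0) of the 215 and 4.47% of all kept gains. The background of such loss was 1.01% of all H3K27ac peaks of 1 h. As a share of the regions with prior H3K27me3, loss by 4 h was 24.5% (14.6 to 38.1) for the gains absent at 4 h, 22.6% (19.8 to 25.6) for those gained at 4 h only and 35.1% (31.1 to 39.3) for the peaks present at all 3 times. The interval of the kept gains overlapped those of the gains absent at 4 h and of the peaks present at all 3 times and lay above that of the peaks gained at 4 h only. H3K27me3 was gained by 4 h at 12 kept gains, 0.590%, with a background of 0.471%. Of the 91 sites that lost it, 45 had lost it by 1 h and 46 still had it then.

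The loss was more frequent at the centre of the kept gains than around them. At 153 kept gains the centre lay inside an H3K27me3 peak of untreated cells, and at 74 of these, 48.4% (40.6 to 56.2), the centre was outside H3K27me3 at 4 h. At points 2 kb to either side the share that left H3K27me3 was 15.8% (13.3 to 18.6), at 5 kb 10.5% (8.58 to 12.9) and at 10 kb 6.95% (5.37 to 8.96). Around the peaks present at all 3 times the shares were 34.8% (28.2 to 42.0) at the centre, 18.3% at 2 kb, 10.7% at 5 kb and 8.39% at 10 kb. At 1 h the centre had left H3K27me3 at 25.5% (19.2 to 32.9) of the kept gains and at 38.1% (31.4 to 45.4) of the peaks present at all 3 times. The H3K27me3 list as a whole did not shrink: its peaks covered 363, 381 and 425 Mb before LPS, after 1 h and after 4 h.

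**Figure D2:**
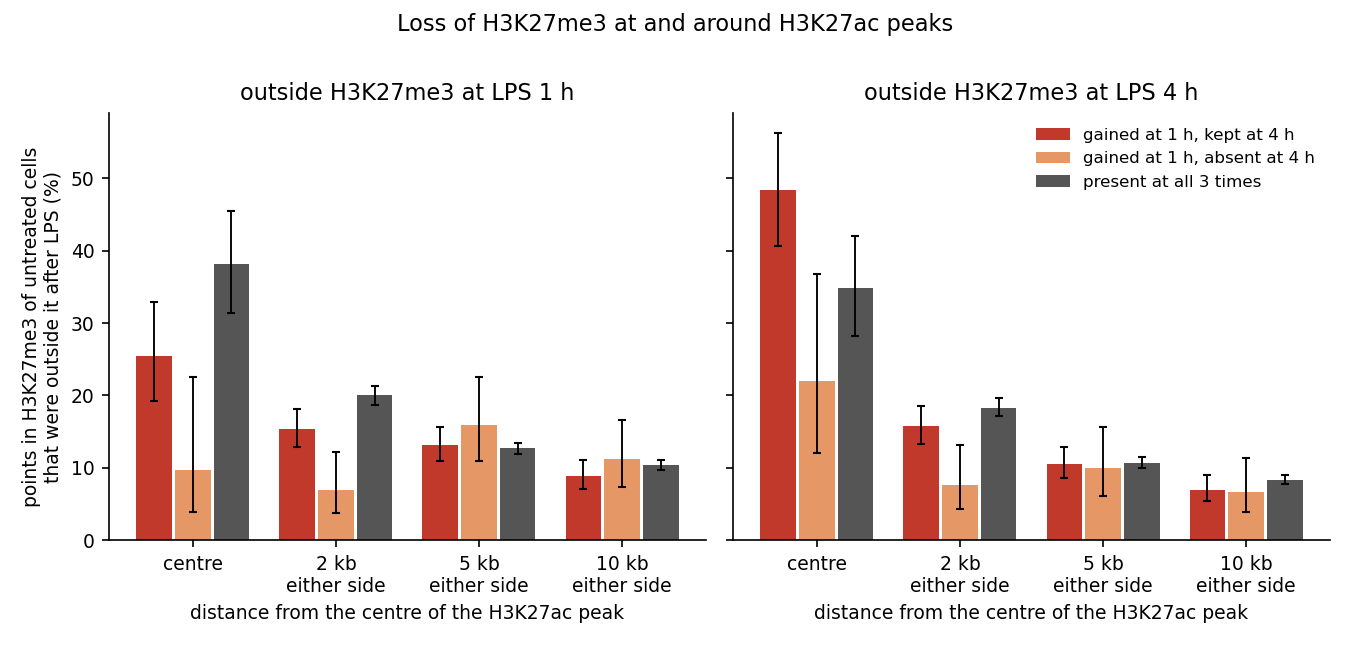
Points that lay inside H3K27me3 of untreated cells at the centre of H3K27ac peaks and 2, 5 and 10 kb to either side, and the share of them (%, y axis from 0) outside H3K27me3 at LPS 1 h (left) and LPS 4 h (right); bars are 95% Wilson intervals. At 4 h the kept gains stand at 48.4% at the centre and 6.95% at 10 kb.

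Most H3K27me3 peaks behind these losses were still partly there at 4 h. The 91 sites lay in 95 H3K27me3 peaks of untreated cells with a median width of 7197 bp. Of these 95 peaks, 13 had no overlap in the 4 h list and 82 were partly left, with a median of 83.8% of their length still covered. The nearest H3K27me3 at 4 h was a median of 374 bp from the kept gain. Over the 215 sites, the covered part of the region was smaller at 4 h at 135, larger at 9 and equal at 71. Even before LPS H3K27me3 was lower at the kept gains than beside them: it covered 7.52% of centres and 18.2% of points 2 kb away.

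The sites that lost H3K27me3 were more often distal and were less covered by it before LPS. H3K27me3 covered a median of 64.1% of the region in untreated cells at the sites that lost it and 100% at those that kept it, and 49 of the 91 that lost it had been at least 50% covered. The part of this in the differences of the other marks was not tested. Promoters were 22.0% (14.7 to 31.5) of the 91 sites that lost it and 45.2% (36.7 to 53.9) of the 124 that kept it. H3K4me1 was present before LPS at 86.8% (78.4 to 92.3) of the sites that lost H3K27me3 and at 70.2% (61.6 to 77.5) of those that kept it. PU.1 lay at 61.5% (51.3 to 70.9) of the sites that lost it and at 46.8% (38.2 to 55.5) of those that kept it, with overlapping intervals. The H3K27ac peak was wider at 4 h than at 1 h at 82.4% (73.3 to 88.9) of the sites that lost H3K27me3 and at 71.0% (62.4 to 78.2) of those that kept it.

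The widest kept gain with H3K27me3 over most of its length before LPS and none at 4 h was chr16:84700985-84705952 (mm9, 4968 bp). H3K27me3 covered 67.2% of it in untreated cells, 37.6% at 1 h and none at 4 h, while H3K4me3 covered 26.0%, 63.2% and 71.9%. Its H3K27ac peak was 23326 bp wide at 4 h, and it was also the widest kept gain that gained H3K79me2, over 23.3% of its length at 4 h. The second, chr2:18720024-18721951 (mm9, 1928 bp), was wholly inside H3K27me3 in untreated cells and at 1 h and had none at 4 h. It held 1 PU.1 peak of 20.6-fold, with H3K4me1 over all of its length before LPS. The third, chr18:65461229-65462871 (mm9, 1643 bp), had H3K27me3 over 70.7% in untreated cells and none at 1 h, with no PU.1 and no H3K4me3 at any time.

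Widths are given as a description, since the H3K27ac lists chose the regions. Kept gains had a median width of 839 bp at 1 h (quartiles 506 and 1294), and the LPS 4 h peaks over them had a median of 1299 bp (quartiles 804 and 2524). The 4 h peak was wider than the 1 h peak at 1511 kept gains, 74.3% (72.3 to 76.1), and at least 1.5 times as wide at 1056, 51.9%. The median ratio was 1.57. The peaks present at all 3 times had a median width of 1868 bp at 1 h and 2195 bp at 4 h, were wider at 68.4% (67.8 to 68.9) and had a median ratio of 1.11.

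Part of that contrast went with the narrower starting width of the kept gains. Under 500 bp the median ratio was 2.34 for kept gains and 1.98 for the peaks present at all 3 times. At 500 to under 1000 bp the medians were 1.53 and 1.33, at 1000 to under 2000 bp 1.20 and 1.11, and at 2000 bp and over 1.19 and 1.05. At 1000 to under 2000 bp the share that was wider was lower for kept gains, 62.3% (58.4 to 66.0), than for the peaks present at all 3 times, 68.3% (67.3 to 69.2). The share at least 1.5 times as wide was higher for kept gains in that class, 39.0% against 19.6%. A 4 h peak at most 50% as wide was found at 93 kept gains, 4.57%.

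At 207 kept gains, 10.2%, the 4 h peak reached into an H3K27ac peak of untreated cells, and there the median ratio was 8.28. All 207 were wider at 4 h. By the rule a kept gain overlaps no peak of untreated cells, so such a 4 h peak must reach past it. The high ratio there is thus in part given by the choice of regions. At the other 1827 kept gains, 89.8%, it did not, and there 71.4% were wider with a median ratio of 1.42. In all, 1997 peaks of the 4 h list lay over the kept gains: 1958 over 1 of them, 37 over 2 and 2 over 3. The 4 h peak covered the whole of the 1 h peak at 1107 kept gains, 54.4%. At 1 kb from the centre, H3K27ac covered 0.663% of positions before LPS, 9.05% at 1 h and 30.1% at 4 h. The whole H3K27ac list covered 83.6, 73.1 and 90.7 Mb at those times, so the 1 h list was the smallest, and its part in the widening was not tested.

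Widening was seen with and without prior H3K4me1, PU.1 and H3K79me2, and at promoters and distal sites. The median ratio was 1.57 with prior H3K4me1 and 1.56 without it. It was 1.43 at kept gains with PU.1 and 1.75 at those without it, and 1.37 at promoters and 1.61 at distal sites. The kept gains with H3K79me2 before LPS had a median ratio of 2.05, and those without it in untreated cells and at 4 h had 1.45. A join with a peak of untreated cells was more frequent at the sites with prior H3K79me2, 102 of 407, than at those without it at either time, 98 of 1573.

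**Figure D3:**
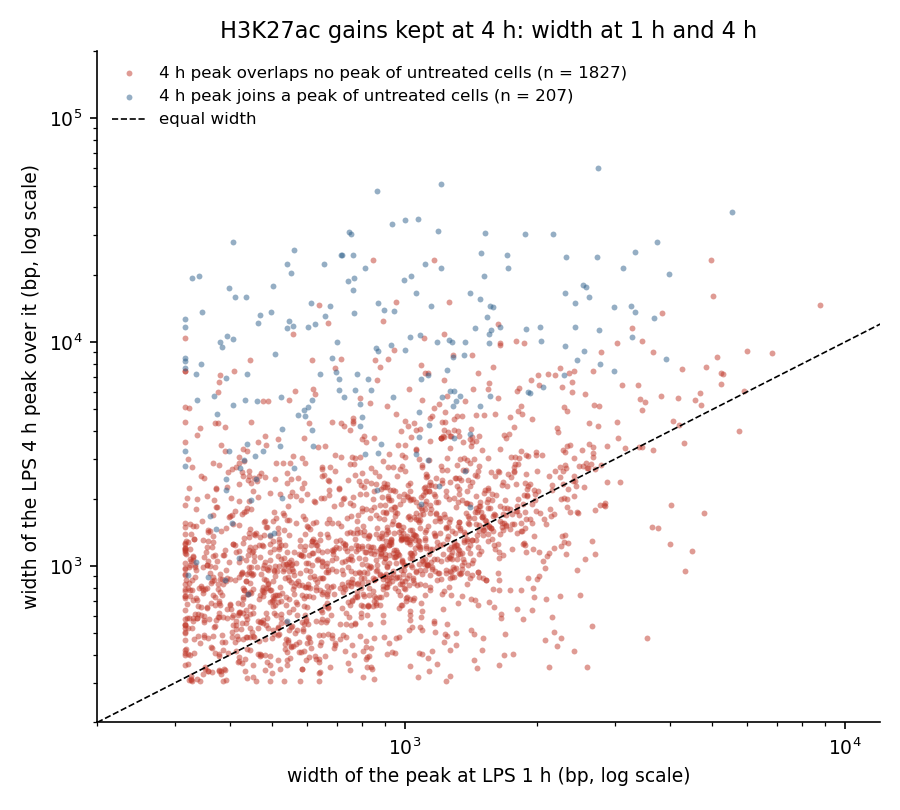
Width of each of the 2034 kept gains at LPS 1 h (x axis, bp, log scale) against the width of the LPS 4 h peak over it (y axis, bp, log scale), with the line of equal width. Most points lie above the line (74.3%), as do all 207 sites whose 4 h peak joins a peak of untreated cells. By the rule such a 4 h peak must reach past the kept gain.

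Kept gains lay a median of 9186 bp (quartiles 3972 and 24598) from the nearest H3K27ac peak of untreated cells. At the edge of the rule, 25 kept gains lay under 200 bp from such a peak, the nearest at 1 bp, and 5 had under 10% of their length over a 4 h peak. Just outside it, 31 peaks called at 1 h and 4 h had under 10% of their length over a peak of untreated cells, the smallest overlap being 1 bp.

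The widest kept gain at 1 h was chr3:135327373-135336164 (mm9, 8792 bp), with a 4 h peak of 14705 bp. It held no PU.1 peak and lay partly in transcribed chromatin, with H3K36me3 over 78.8% and H3K79me2 over 57.3% of its length before LPS. The second, chr18:65484686-65491520 (mm9, 6835 bp), had H3K4me1 over 23.7% of its length before LPS, 62.7% at 1 h and 100% at 4 h. The third, chr16:84602877-84608869 (mm9, 5993 bp), had H3K4me1 over 27.4%, 77.4% and 100% and held a PU.1 peak of 27.9-fold. H3K36me2 appeared over 32.1% of the second and 70.4% of the third at 4 h, where there was none in untreated cells. The fourth, chr14:34097291-34103189 (mm9, 5899 bp), lay wholly in H3K36me2 before LPS, and its 4 h peak was 6014 bp wide. The fifth is the chr4 region with 3 PU.1 peaks. At the sixth, chrX:18718438-18723974 (mm9, 5537 bp), the 4 h peak was 38072 bp wide and H3K36me3 covered 54.1% before LPS.

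The 3 widest 4 h peaks over kept gains were 59926 bp over chr2:90360993-90363738, 50735 bp over chr1:80618734-80619944 and 47134 bp over chr17:17999064-17999927 (all mm9). The 1 h peaks there were 2746, 1211 and 864 bp wide. All 3 sites were wholly inside H3K4me1 and H3K36me2 before LPS, and all 3 lay within 5 kb of an H3K27ac peak of untreated cells, at 4254, 152 and 2145 bp.

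**Figure D4:**
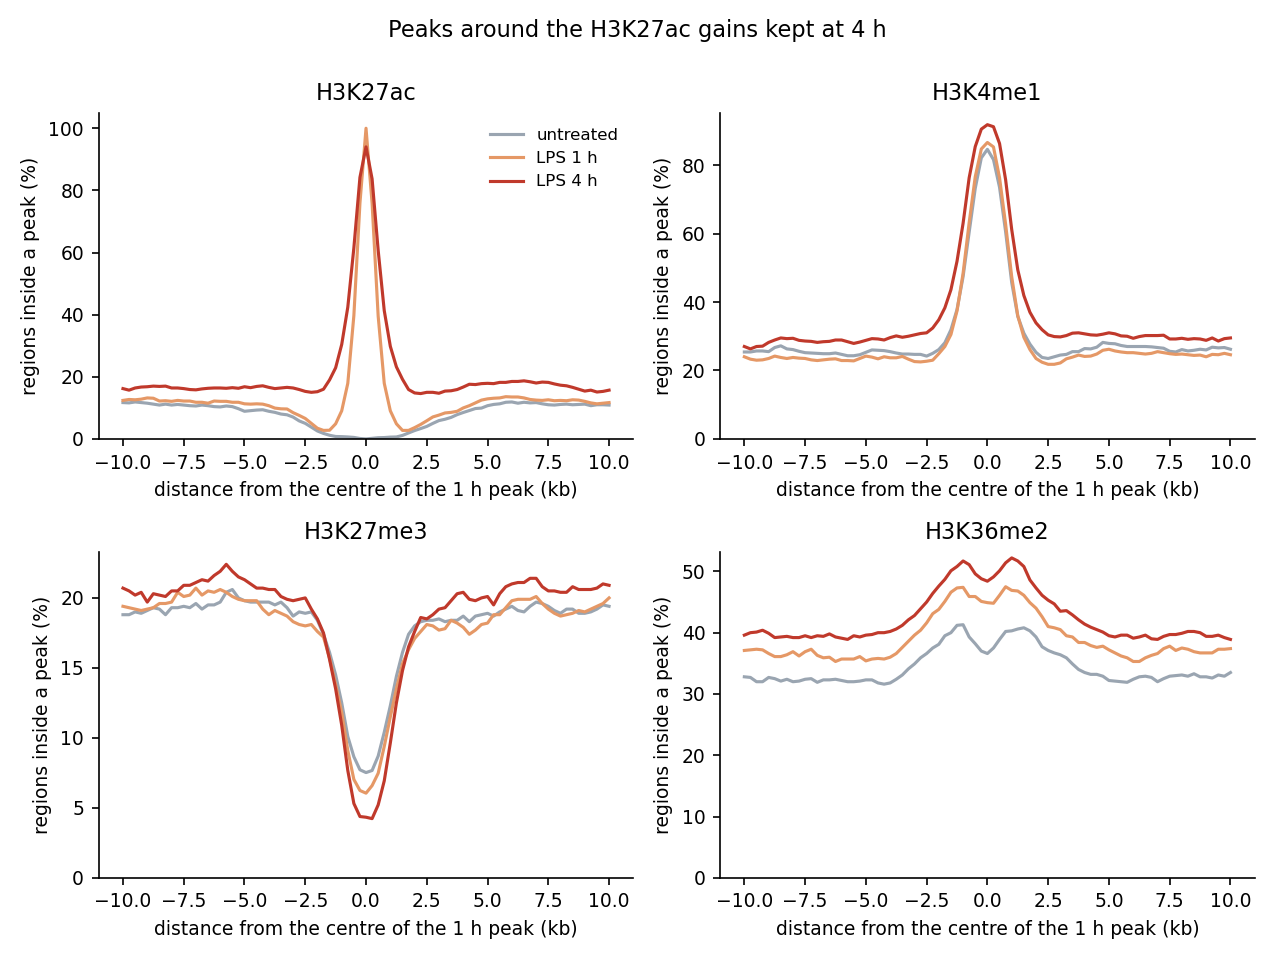
Share of the 2034 kept gains (%, y axis from 0) inside a peak of each mark at distances up to 10 kb from the centre of the 1 h peak, before LPS, after 1 h of it and after 4 h. H3K27ac is 0 at the centre in untreated cells and 100% at 1 h by the rule; H3K4me1 at 1 kb stands at 46.5%, 47.9% and 62.1%, and H3K27me3 at the centre at 7.52%, 6.05% and 4.33%.

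H3K79me2 was gained at few kept gains. It was present at 20.0% (18.3 to 21.8) in untreated cells, 21.1% (19.4 to 22.9) at 1 h and 22.0% (20.3 to 23.9) at 4 h. It lay at 110, 124 and 128 of the 579 gains absent at 4 h at the same 3 times, and at 41.5%, 43.1% and 43.8% of the peaks present at all 3 times. The last are wider peaks, and the order of the untreated shares changed with width. Under 500 bp it lay at 19.2% of kept gains and 13.5% of those peaks, and at 500 to under 1000 bp at 19.8% and 15.3%. At 1000 to under 2000 bp it lay at 18.6% and 32.9%, and at 2000 bp and over at 27.7% and 59.3%. It was gained by 4 h at 54 kept gains, 2.65% (2.04 to 3.45), and the background over all H3K27ac peaks of 1 h was 3.16%, inside that interval. It was lost by 4 h at 13, 0.639%, with a background of 0.824%. Over all kept gains, the share that gained H3K79me2 was thus not above the background. Among regions without it before LPS, the share was 3.32% (2.55 to 4.31) for the kept gains and 4.26% (2.78 to 6.49) for the gains absent at 4 h. For all H3K27ac peaks of 1 h it was 5.15% (4.84 to 5.49), above the interval of the kept gains. Those peaks had a median width of 1683 bp, against 839 bp, and the part of width in this was not tested.

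The 54 sites lay mostly near H3K79me2 that was there before LPS. H3K79me2 of untreated cells was within 10 kb of 50 of them, 92.6% (82.4 to 97.1). The share of all kept gains at that distance was not counted. H3K36me3 of untreated cells overlapped 37 of the 54, 68.5% (55.3 to 79.3), and 30.8% (28.8 to 32.8) of all kept gains. Of the 54, 4 were promoters. H3K79me2 was already there at 1 h at 28 of them. Beside chr16:84700985-84705952 above, the widest were chr16:10956062-10958748 and chr14:30785980-30788291 (both mm9), wholly inside H3K36me3 at every time, with H3K79me2 over 8.75% and 23.7% at 4 h.

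Over all kept gains, H3K36me2 was gained at a share near the background, but at a lower share among regions without it before LPS. It was present at 44.5% (42.4 to 46.7) in untreated cells, 51.5% (49.4 to 53.7) at 1 h and 54.8% (52.6 to 57.0) at 4 h. It was gained by 4 h at 245 kept gains, 12.0% (10.7 to 13.5), against a background of 12.5%. Among regions without it before LPS, the share was 21.7% (19.4 to 24.2) for the kept gains and 19.6% (15.7 to 24.2) for the gains absent at 4 h. For all H3K27ac peaks of 1 h it was 31.1% (30.2 to 31.9). Width was not matched in this comparison. The H3K36me2 peak was wider at 4 h than in untreated cells at 85.2% (82.6 to 87.4) of the 844 kept gains that had it at all 3 times and at 86.1% (85.5 to 86.6) of the peaks present at all 3 times. The list as a whole also grew, to a covered length of 281, 320.5 and 349 Mb at the 3 times in that order. H3K36me3 was nearly level at the kept gains, 30.8%, 31.5% and 30.3% at the 3 times, and was more frequent at the gains absent at 4 h, 38.3% (34.5 to 42.4), 40.4% and 39.4%.

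After flavopiridol, H3K4me1 and H3K36me2 were called at fewer kept gains with LPS than without it. H3K4me1 lay at 71.6% (69.6 to 73.5) of kept gains after flavopiridol and LPS for 4 h and at 79.4% (77.6 to 81.1) after flavopiridol alone, a difference of -7.82 percentage points. Without the drug, LPS 4 h minus untreated was 6.74 points. For H3K36me2 the differences were -7.92 points with the drug and 10.3 points without it. Of the 150 kept gains that gained H3K4me1 by 4 h, 62, or 41.3% (33.8 to 49.3), had it after flavopiridol and LPS, and 50, or 33.3% (26.3 to 41.2), after flavopiridol alone. The share after flavopiridol and LPS differed between classes. Among regions that gained H3K4me1 by 4 h, it was 36.1% (22.5 to 52.4) for the gains absent at 4 h. It was 18.7% (16.3 to 21.2) for those gained at 4 h only and 66.3% (59.1 to 72.8) for the peaks present at all 3 times. For the point differences, the other classes gave like values in part. For H3K4me1 the gains absent at 4 h differed by -8.81 points with the drug and 3.97 without it, and the peaks present at all 3 times by -3.54 and -0.251. For H3K36me2 the gains absent at 4 h differed by -12.1 points with the drug and 9.15 without it, and the peaks present at all 3 times by -10.4 and 10.6. The opposite directions were thus also seen outside the kept gains, except for H3K4me1 at the peaks present at all 3 times. Few peaks of the flavopiridol lists reached a −log10 q of 5. For H3K4me1 these were 4.02% after flavopiridol and LPS and 12.8% after flavopiridol alone, against 53.0% after LPS for 4 h and 54.4% in untreated cells. For H3K36me2 they were 0.0390% and 0.197%, against 32.5% after LPS for 4 h and 9.02% in untreated cells. The part of this in the differences was not tested.

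The deposited segmentations with 27 chromatin states show the same sites as they changed. A state is a recurring combination of marks; its number is the authors', and its content was read here from the peak lists. State 16 in untreated cells had H3K4me1 over 99.2% of its steps of 200 bp and H3K27ac over 19.1%, and state 17 had H3K4me1 over 100.0% and H3K27ac over 99.8%. State 16 lay at the centre of 39.7% (37.6 to 41.8) of kept gains before LPS, 22.4% at 1 h and 11.1% at 4 h. State 17 lay there at 0.442%, 15.1% and 30.5% (28.5 to 32.5). State 3, with H3K27ac, H3K4me1 and H3K36me2, lay at 0.442%, 3.83% and 8.90%. Since H3K27ac chose the regions and separates these states, their order in time is a description.

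The most frequent path was state 16 in untreated cells and state 17 at both times, at 178 kept gains, followed by state 16 until 1 h and state 17 at 4 h, at 175. State 16 stayed at all 3 times at 107. At the gains absent at 4 h, state 16 lay at 36.4% before LPS, 24.9% at 1 h and 33.5% at 4 h, and state 17 at 0.691%, 6.04% and 0% (0 to 0.659). A different path ended in promoter states: 32 kept gains had state 22 in untreated cells, with H3K4me3 over 96.9% of its steps and H3K27ac over 48.8%, and state 23 at 1 h and 4 h, with H3K4me3 over 100.0% and H3K27ac over 99.8% in untreated cells.

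**Figure D5:**
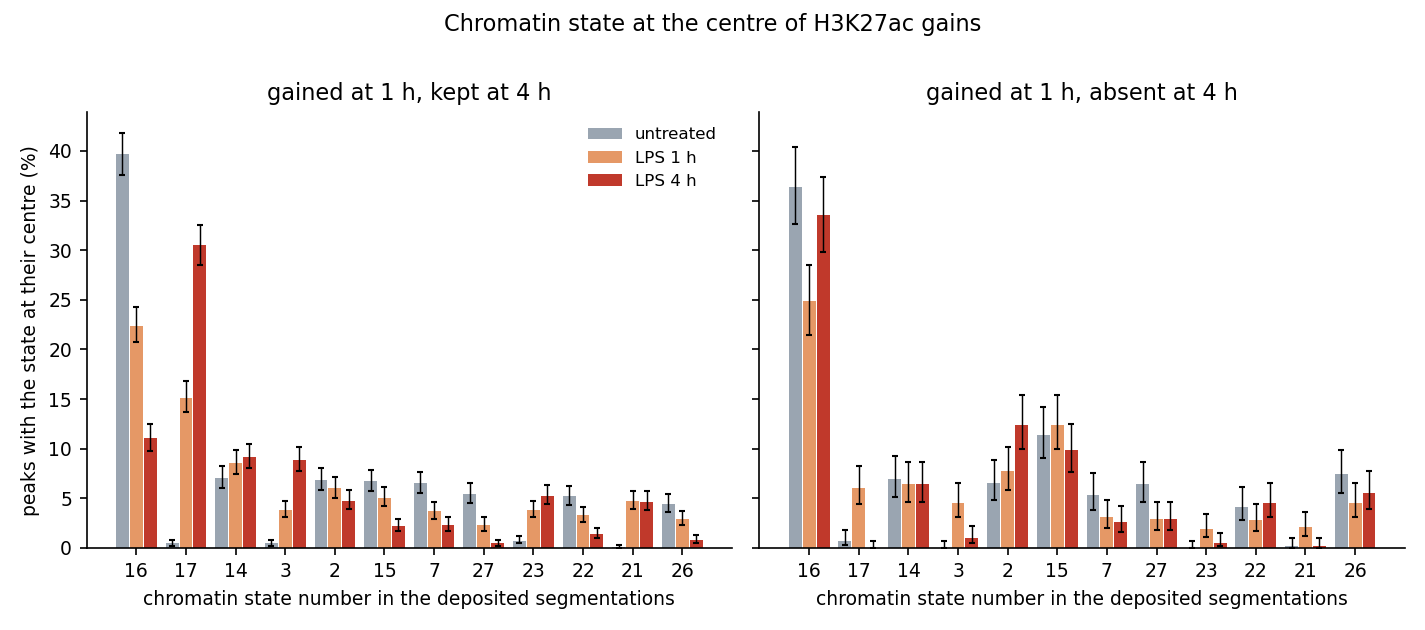
Share of peaks (%, y axis from 0) with each chromatin state at their centre at the 3 times, for the kept gains (left) and the gains absent at 4 h (right), with only states that held at least 4% of kept gains at some time; bars are 95% Wilson intervals. State 16 stands at 39.7%, 22.4% and 11.1% of the kept gains and state 17 at 0.442%, 15.1% and 30.5%, while at the gains absent at 4 h state 16 stands at 33.5% at 4 h.

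Kept gains were spread over all 20 chromosomes. They were 9.85% (8.22 to 11.8) of the H3K27ac peaks of 1 h on chromosome 16, the highest share, and 5.67% (4.55 to 7.05) on chromosome 17, the lowest. Most stood alone: 1607, or 79.0%, had no other kept gain within 25 kb. The other 427 formed 186 runs, 30 of them of 3 or more, so neighbouring kept gains are not independent sites. The 4 longest runs held 6 kept gains each, 3 on chromosome 16 and 1 on chromosome 19. The run at chr16:24712084-24778641 (mm9) spanned 66558 bp with 6 H3K27ac peaks at 1 h, all kept gains, none in untreated cells and 9 at 4 h. The run at chr19:29231926-29284978 (mm9) spanned 53053 bp and likewise had no H3K27ac peak in untreated cells and 6 at 1 h, all kept gains. These runs were chosen after their values were seen.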

How the data were processed

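Peak lists of RAW264.7 cells were used for 26 of 29 samples; the 3 input samples have no list here. The submitters' processing notes name Bowtie 1.0.1, MACS2 and the mm9 build. For MACS2, neither version nor settings, control library, pooling or read totals were given in the sources. Histone marks have broad peaks, and PU.1 has narrow peaks with summits. The deposited ratio of each peak is its fold enrichment over background, and the −log10 p, −log10 q and score beside it are likewise the authors' deposited values. Only intervals were used for histone marks, with q in the alternatives. The authors also deposited segmentations in steps of 200 bp, made with a tool that no source here names.

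Overlap is at least 1 bp. Coordinates are 1-based mm9 positions. The PU.1 file has 107986 lines, and 99565 distinct intervals on the chromosomes used. Positions around the centres were read at fixed distances, and states at the centre. Python 3.11.15 with numpy 2.4.6, pandas 2.3.3 and matplotlib 3.10.9 was used. Overlap counts, covered lengths and distances were tested on simulated data against bedtools 2.31.1 and were equal for 2400 of 2400 intervals.

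The regions named are the 6 widest, the 3 with the widest 4 h peak, the 3 widest distal without prior H3K4me1, the 3 widest that were at least 50% H3K27me3 in untreated cells and free of it at 4 h, the 3 widest that gained H3K79me2 and the 3 with most PU.1 peaks. The members and lists were chosen with earlier results of these data known. No mm9 annotation or genome was used here, so the planned gene assignments, gene list, motifs and sequences were not run. Alternatives were at least 50% covered, a −log10 q of at least 5, a distance of 1 kb from untreated H3K27ac, a width of 1 kb, merging within 1 kb, H3K4me3 within 2 kb or at any time, a PU.1 fold of at least 10 and, chosen after seeing the data, a window of 1 kb at the centre.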

Additional observations from a re-analysis of the deposited data

Results flagged for a closer look

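The change in H3K4me1 with LPS at the kept gains had opposite directions with and without flavopiridol. The share of kept gains with H3K4me1 differed by -7.82 percentage points between flavopiridol with LPS for 4 h and flavopiridol alone, and by 6.74 points between LPS for 4 h and untreated cells, which are -14.6 points apart. The gains absent at 4 h also had opposite directions, -8.81 and 3.97 points, and the peaks present at all 3 times did not, -3.54 and -0.251 points. H3K36me2 did the same, with -7.92 points with flavopiridol and 10.3 points without it, -18.2 points apart. This was seen in the other classes too, with -12.1 and 9.15 points for the gains absent at 4 h and -10.4 and 10.6 points for the peaks present at all 3 times. Each value rests on 1 library per condition, so the difference between the 2 directions was not tested. Few peaks of the lists after flavopiridol and LPS reached a −log10 q of 5, 4.02% for H3K4me1 and 0.0390% for H3K36me2. After LPS for 4 h without the drug, 53.0% and 32.5% did.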

How the results depend on the processing

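Of 58 alternative values, 38 stayed within the spread that counting allows, or within 1.5 times for a number, and 20 moved. The 38 include the values after merging within 1 kb, which could not move because no peaks were merged. They also include those at a distance of 1 kb from untreated H3K27ac, which left 1980 of the 2034 regions. The 38 thus do not measure how firm the results are. A −log10 q of at least 5 in every list moved every value. A −log10 q of at least 5 in every list, which also empties part of the untreated H3K27ac list, gave 3408 regions, with 37.3% at promoters, 56.7% with prior H3K4me1, 71.8% with PU.1, 0.763% with H3K27me3 and 73.1% of that gone at 4 h, 70.5% wider and 5.66% with H3K79me2 gained. Regions of at least 1 kb numbered 807, with 7.68% at promoters, 13.1% with H3K27me3, 62.5% wider and 3.47% with H3K79me2 gained. A rule of at least 50% covered, for the choice of regions and for the histone marks, gave another set of 2870 regions, with PU.1 at 63.9%, H3K27me3 at 6.27% and its loss at 53.9%. Promoters were 14.5% with H3K4me3 within 2 kb and 17.2% with H3K4me3 at any time. PU.1 of at least 10-fold lay at 21.4%, and 51.9% were at least 1.5 times as wide. A 1 kb window at the centre moved none of its 6 values, and merging within 1 kb changed none, since no peaks of 1 list of histone marks lay that close. No paired analysis was possible because each mark and condition has 1 library. With depth unknown, an absent peak does not show an absent mark, and loss and gain move with the depth of each library.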
